A study of Rattus norvegicus with 7 samples.

Results

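miR-22 is a microRNA that was among the brightest on these arrays of rat liver, and its hairpin precursor gives a guide arm and a star arm. The array names them rno-miR-22 and rno-miR-22*, and both were followed here by those exact names, which make up 2 of the 677 rat miRNAs and 3 of the 1644 miRNA probes on the array. The comparison was between livers of adult male Sprague-Dawley rats that ate either a control diet or a diet with PFOS (perfluorooctane sulfonate, a persistent fluorinated surfactant) at 50 mg/kg diet, in both cases for 28 days. RNA of 4 rats per group had been hybridised, but the submitters dropped a control array that failed their quality checks. This left 4 PFOS and 3 Control arrays, each of total RNA of 1 liver labelled with Cy3, all on 1 slide of the Agilent rat miRNA design. Replicate numbers follow the order of deposit and only name the arrays. The samples were whole liver, so a difference in a level cannot be told apart from a difference in the cells that make up the tissue.

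A microRNA hairpin is cut by Dicer into a duplex of its arms, and one arm is usually loaded into Argonaute as the guide while the other, the star or passenger arm, is mostly degraded. The guide pairs with messenger RNAs mainly through its seed, and lowers their stability and translation. miR-22 is made in many tissues and is abundant in liver, and its known targets include Ppara, the lipid-sensing nuclear receptor that PFOS can activate in rodents. Both arms are made from the same transcript, and the choice of the loaded arm and the decay of the other are known to set their ratio.

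The mature arms and their hairpin show what the probes stand for, and are given 5′ to 3′ from RefSeq (build GRCr8). In the first and second line capitals mark the seed (bases 2 to 8), and in the third line capitals mark the arms within the hairpin.

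rno-miR-22-3p (array name rno-miR-22): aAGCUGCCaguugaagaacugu

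rno-miR-22-5p (array name rno-miR-22*): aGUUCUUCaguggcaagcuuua

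rno-mir-22 hairpin: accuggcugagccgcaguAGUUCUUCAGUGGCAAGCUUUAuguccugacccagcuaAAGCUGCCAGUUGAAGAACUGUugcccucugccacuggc

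The hairpin of 95 bases lies at chr10:60805331-60805425 on the plus strand. The star arm takes its bases 19 to 40 (chr10:60805349-60805370) and the guide its bases 57 to 78 (chr10:60805387-60805408), each 22 bases long. The pairing of the array's names with the 3p and 5p arms follows the older naming of miRBase, since the array files used here hold no probe sequences. Of 694 mature rat sequences in the RefSeq table, 1 has the seed AGCUGCC and 1 has the seed GUUCUUC, in each case the arm itself. No other miRNA on the array was therefore grouped with either arm by seed. In the GRCr8 annotation the neighbours of Mir22 are the protein-coding gene Wdr81 and the miRNA gene Mir6326 on one side and the protein-coding genes Tlcd2 and Prpf8 on the other, and none of them overlaps it.

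The liver identity of the samples was checked on miRNA markers. All 4 hepatocyte markers were detected on every array, with a summed signal of 58997 to 69105 on PFOS and 66511 to 69691 on Control arrays. Summed signals of stellate cell, leukocyte, endothelial, erythroid and muscle markers overlapped between the groups, and 5 of the 6 muscle markers were detected on no array. The sum of the 5 epithelial markers was the exception, at 290 to 579 on PFOS against 68.4 to 183 on Control arrays, with miR-200c and miR-141 detected on no array. The PFOS arrays were also brighter as a whole. Before scaling, the 123 miRNAs detected everywhere had a median signal 1.74 times as high on PFOS arrays (226 to 326) as on Control arrays (133 to 176), and the labelling spike-in was 2.23 times as high.

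The guide arm was measured by a pair of probes with 10 spots each per array, A_26_P00001212 and A_26_P00001213, and the star arm by 1 probe with 20 spots, A_26_P00002016. Every spot of the 3 probes was well above background on all 7 arrays, and 0 spots were saturated. The number of arrays limits the precision of what follows. The median coefficient of variation between spots was 4.48% and 6.11% for the guide probes and 9.51% for the star probe.

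As scanned, with the scanner's background subtracted but arrays not yet scaled to each other, the signal of A_26_P00001212 was 1614, 1336 and 1553 on Control 1 to 3 and 1853, 2708, 2502 and 2627 on PFOS 1 to 4. That of A_26_P00001213 was 3156, 2776 and 3075 on the Control arrays and 3764, 5209, 6139 and 5340 on the PFOS arrays. The star probe gave 42.3, 35.3 and 43.7 against 67.7, 80.1, 94.3 and 75.7. For each of the 3 probes every PFOS array lay above every Control array. In the summed guide signal the PFOS mean was 1.67 times the Control mean and in the star signal 1.97 times, and both have to be read beside the ratio of 1.74 for the arrays as a whole.

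**Figure D1:**
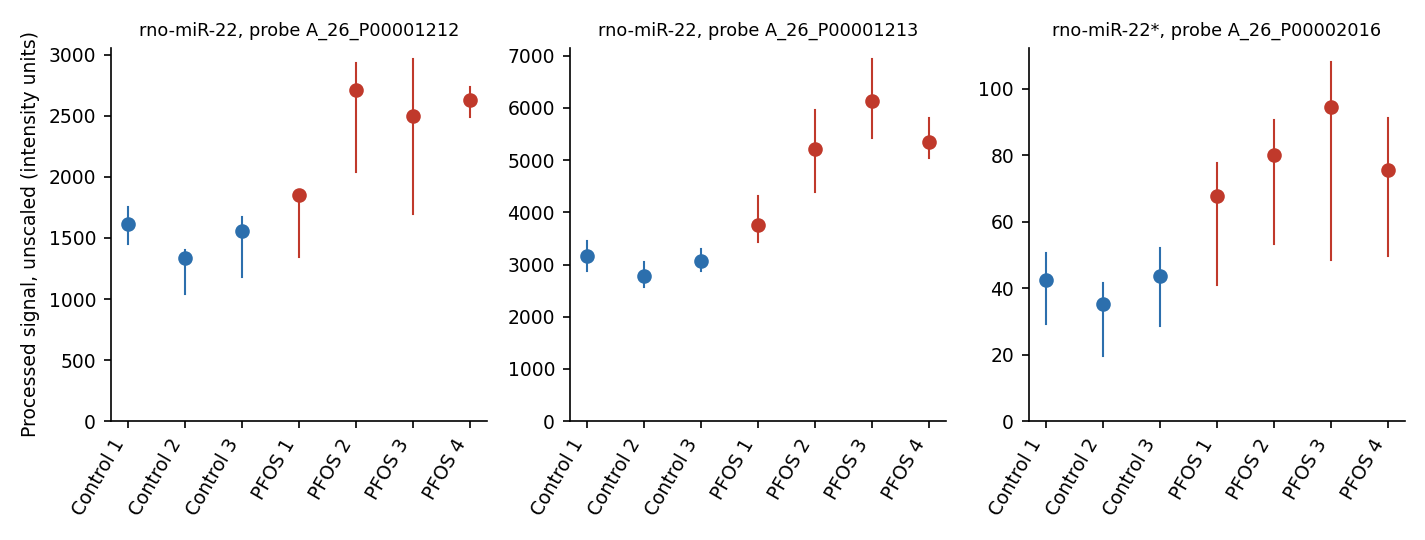
Processed signal before scaling between arrays (intensity units, vertical axis from 0) of the 3 probes on each of the 7 arrays, where points are the mean over kept spots and bars run from the lowest to the highest spot. All 4 PFOS points lie above the 3 Control points for each probe, as does the median signal of the arrays as a whole.

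After scaling and cyclic loess, which bring the arrays to a common level, the guide arm no longer separated the groups. Normalized signals of miR-22 were 6142, 6144 and 5630 on Control 1 to 3 and 6071, 6258, 5479 and 6284 on PFOS 1 to 4. The highest and the lowest values were both on PFOS arrays, and the groups overlapped. Means were 6023 ± 375 (SD, n = 4) in PFOS and 5972 ± 296 (SD, n = 3) in Control livers. The log2 fold change was 0.01 (SE 0.08, 95% interval -0.18 to 0.21), which did not pass in limma (p = 0.893, adjusted p = 0.9997 over 175 tested miRNAs), nor in an exact two-sided permutation test (p = 0.80). Differences inside that interval were not resolved with 7 arrays.

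The star arm lay higher on the PFOS arrays without passing the test. Normalized signals of miR-22* were 51.0, 54.9 and 56.0 on Control 1 to 3 and 73.8, 62.7, 58.5 and 59.5 on PFOS 1 to 4. Every PFOS value was above every Control value, with PFOS 1 the highest, and a separation in that direction was found for 17 of the 175 tested miRNAs (9.71%). Means were 63.6 ± 7.01 (SD, n = 4) and 53.9 ± 2.63 (SD, n = 3). The log2 fold change was 0.23 (SE 0.10, 95% interval -0.01 to 0.48, limma p = 0.0597, adjusted p = 0.276), and the exact two-sided permutation p was 0.0571, where 35 splits cannot give less than 0.0286. Within the first row of the slide (Control 1, PFOS 1 and PFOS 2) the log2 difference was 0.42, and within the second row (Control 2, Control 3, PFOS 3 and PFOS 4) it was 0.09. The epithelial marker sum and the brightness of the arrays separated the groups the same way, and their part in this difference was not tested.

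For reference, 0 of the 175 tested miRNAs (0%) passed at an adjusted p under 0.05 in limma, the smallest adjusted p was 0.131, and 34 (19.4%) had an unadjusted p under 0.05. The median log2 fold change over all of them was -0.02, with 80 positive and 95 negative. By unadjusted p, miR-22 stood at 151 of 175 and miR-22* at 37. The spread of miR-22 within groups was small, at an SD of 0.08 on the log2 scale against a median of 0.19 over the tested miRNAs. It carried full weight in the loess, at the bright end of a curve where only miR-122 and miR-21 were brighter, so neither its fold change near 0 nor its small spread shows that its level was unchanged. With both arms and the 10 brightest miRNAs given no weight in the loess, the log2 fold change of miR-22 was -0.13 (SE 0.15).

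**Figure D2:**
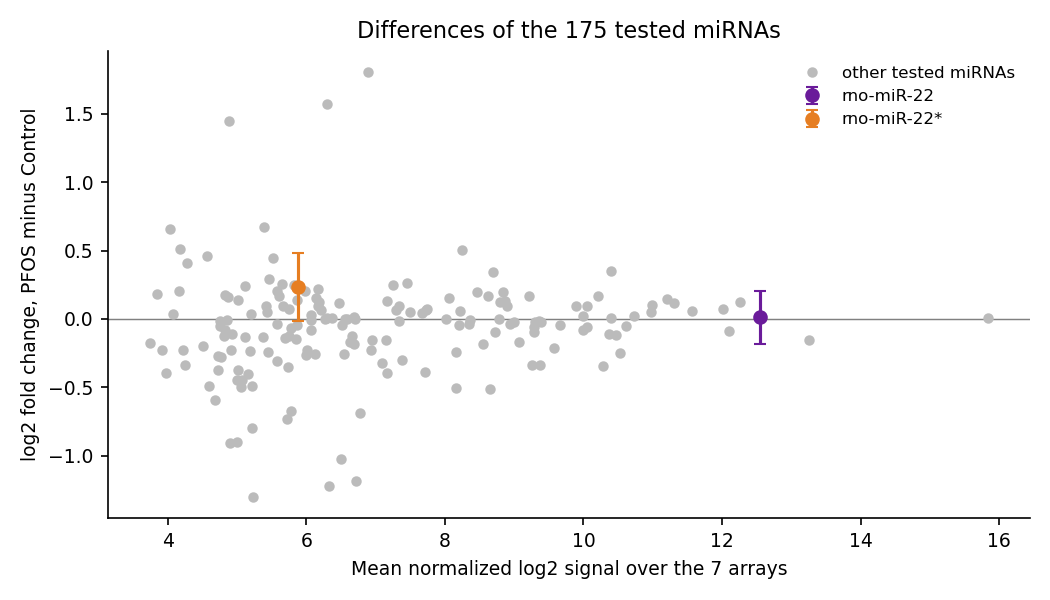
Log2 fold change (PFOS minus Control, vertical axis) against the mean normalized log2 signal (horizontal axis) of the 175 tested miRNAs, with 95% intervals for the arms of miR-22. The guide sits near 0 at the bright end and the star arm at 0.23 among the dimmer miRNAs, both with intervals that include 0.

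Probe by probe, neither arm passed. In a fit over 320 tested probes, of which 2 passed (0.625%), the log2 fold change was -0.08 (SE 0.12, limma adjusted p = 0.902) for A_26_P00001212 and 0.03 (SE 0.07, limma adjusted p = 0.942) for A_26_P00001213. The groups overlapped for both guide probes, and both intervals included 0. For the star probe it was 0.23 (SE 0.09, limma adjusted p = 0.258), with every PFOS array above every Control array, as for 40 of the 320 probes (12.5%). The guide probes share their target and are not replicates. The log2 ratio of the second to the first was 0.93 to 1.03 on the Control arrays and 1.03, 0.98, 1.33 and 1.02 on PFOS 1 to 4, so the guide probes parted on PFOS 3 alone.

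By signal the guide arm ranked 3 of 677 on every array. Above it were miR-122, the dominant hepatocyte miRNA, with normalized signals of 57369 to 60193 over the 7 arrays, and miR-21, a miRNA known for its oncogenic activity, with 8554 to 11064. Below it were let-7f, of the let-7 differentiation family, at 4482 to 5291 and miR-192, an epithelial and hepatocyte miRNA, at 4077 to 4752. The range of miR-22, 5479 to 6284, met neither of its neighbours' ranges. The star arm ranked 128, 122 and 113 on Control 1 to 3 and 102, 102, 111 and 106 on PFOS 1 to 4, nearer the top on every PFOS array (exact two-sided permutation p = 0.0286, the smallest possible), as for 15 of the 175 tested miRNAs (8.57%). In the value table that the authors deposited its ranks were 80, 87 and 77 on the Control arrays and 75, 70, 77 and 73 on the PFOS arrays, where the groups met at 77 (exact two-sided permutation p = 0.0857). Its median rank over the arrays was 111, and it was 340 with normexp background correction and 77 in the deposited table. The normexp setting added 50 to each spot before probes were summed, so a miRNA gained 50 per probe, and the star arm has 1 probe. Its neighbours in mean signal were miR-483*, miR-148b-3p, miR-17-5p and miR-181a, and its range of 51.0 to 73.8 overlapped with theirs, so their order was not resolved. Probes differ in affinity and number, and a rank of signal is not a rank of abundance.

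A factor common to all spots of an array cancels in the ratio of its arms. A background level added to both arms does not, nor does an adjustment that varies with signal, such as loess. Before loess, the guide signal was 113, 117 and 106 times the star signal on Control 1 to 3 and 83.0, 98.8, 91.6 and 105 times on PFOS 1 to 4, where only the size of the change between groups is read, since different probes measure the arms. Every PFOS ratio was below every Control ratio. On the log2 scale the means were 6.56 ± 0.15 (SD, n = 4) and 6.80 ± 0.07 (SD, n = 3), a difference of -0.24 (exact two-sided permutation p = 0.0571). After loess the log2 ratios were 6.91, 6.81 and 6.65 on the Control arrays and 6.36, 6.64, 6.55 and 6.72 on the PFOS arrays, and the groups overlapped. The difference was then -0.22 (SE 0.12, 95% interval -0.51 to 0.06), which did not pass in limma (adjusted p = 0.323 over 24 pairs of arms), and it was -0.35 without Control 3. Within the first slide row it was -0.41 and within the second -0.09. Over all arrays it was -0.18 with negative controls subtracted and -0.32 with the median signal without background subtraction.

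Among the 24 precursors with both arms tested, the ratio of miR-22 was eighth by p. The ratio of 1 precursor passed (4.17%), that of miR-99a over miR-99a*. Of all pairs 15 differences were positive and 9 negative, with a median of 0.04. For miR-122, the other bright hepatocyte precursor, the guide over star ratio differed in the opposite direction, by 0.25 (SE 0.09, limma adjusted p = 0.186). After loess the arms of miR-22 did not follow each other from array to array. Before scaling, both arms were lowest on Control 2 and highest on PFOS 3, as was the median signal of the arrays. Over the 7 arrays the correlation of their normalized log2 values was r = 0.12 and rho = 0.14, given as a description.

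**Figure D3:**
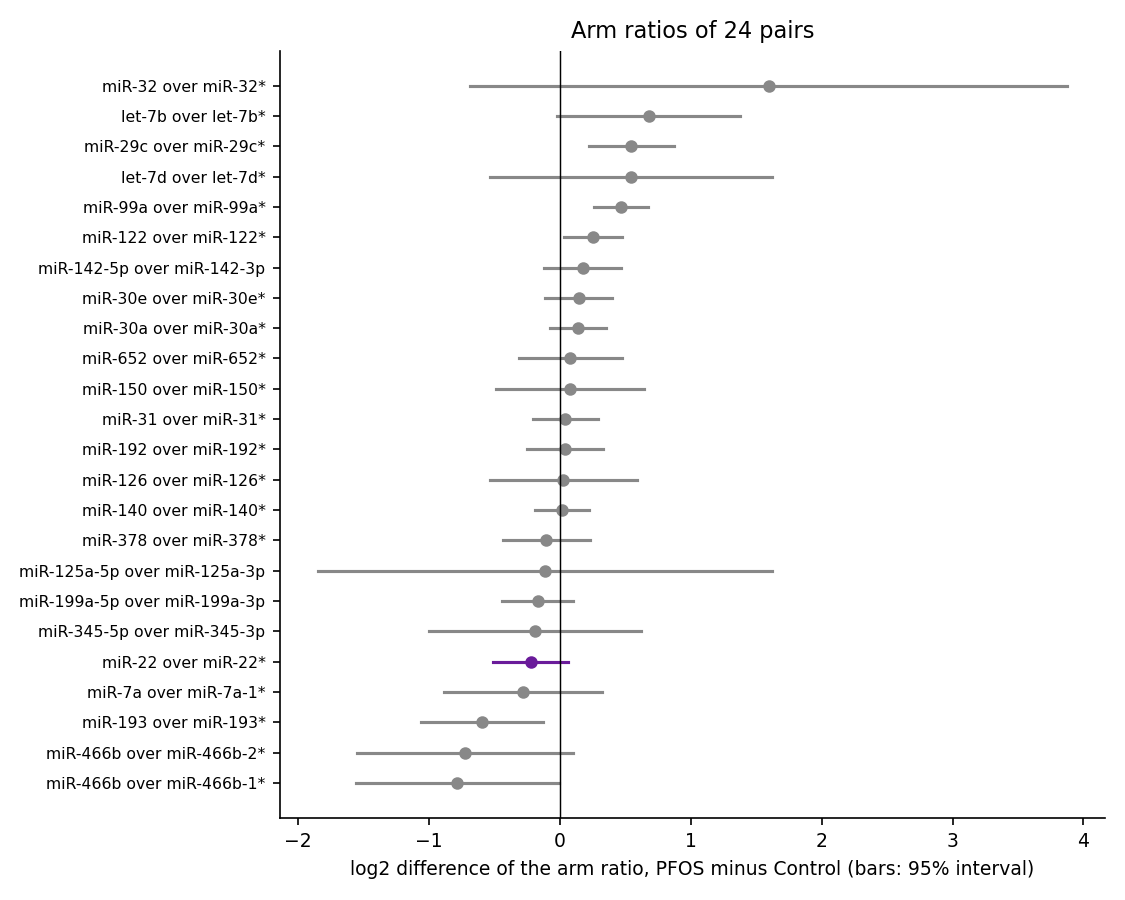
Difference in the log2 ratio of guide to star arm, or 5p to 3p arm, between PFOS and Control arrays for 24 precursors, with 95% intervals as bars. The ratio of miR-22 (purple) lies at -0.22 with an interval that includes 0.

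The value table that the authors deposited, in log2 units and normalized by them, gave another picture of the guide arm. Its values for miR-22 were 11.62, 11.82 and 11.65 on Control 1 to 3 and 11.42, 11.29, 11.08 and 11.29 on PFOS 1 to 4. Every PFOS value was below every Control value, as for 32 of the 175 tested miRNAs (18.3%). The log2 fold change was -0.42 (SE 0.09, 95% interval -0.64 to -0.21), which passed in the same limma fit (adjusted p = 0.0470). In that fit 9 miRNAs (5.14%) passed as lower in PFOS livers and 0 as higher. The call on miR-22 was close to the threshold. It was kept without PFOS 1 (-0.48, limma adjusted p = 0.0250) and lost without any of the other 6 arrays (log2 fold changes of -0.46 to -0.36, adjusted p of 0.0726 to 0.162), and with slide row as a block (-0.43, adjusted p = 0.0522). Here too miR-22 ranked 3 of 677 on every array.

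For the star arm the table held 6.63, 6.58 and 6.66 on the Control arrays and 6.84, 6.80, 6.73 and 6.75 on the PFOS arrays. All PFOS values were above all Control values, as for 11 of the 175 miRNAs (6.29%). The log2 fold change of 0.15 (SE 0.05, 95% interval 0.04 to 0.27) did not pass in limma (adjusted p = 0.0994). Each column of the table followed the scanner's median pixel signal with no background subtracted (r of 0.9987 to 0.9998 across miRNAs, which are not independent replicates).

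In this table the log2 ratio of guide to star was 4.99, 5.24 and 4.99 on Control 1 to 3 and 4.59, 4.49, 4.35 and 4.55 on PFOS 1 to 4, with all PFOS values below all Control values. The difference of -0.58 (SE 0.09, 95% interval -0.79 to -0.36) passed in limma (adjusted p = 0.00775 over 24 pairs), also without any 1 array (-0.62 to -0.49) and with slide row as a block (-0.58, limma adjusted p = 0.0112). The exact two-sided permutation p was 0.0286, the smallest possible. It was 1 of 4 ratios that passed as lower (16.7%), while 2 passed as higher (8.33%). In all 6 of these the mean log2 ratio was closer to 0 in PFOS than in Control, a feature looked for after the calls were seen. Over all 24 pairs the ratio was closer to 0 in PFOS for 17 in the table and for 8 in the scanner signal after loess. In the table the star arm, at 6.58 to 6.84, lay not far above the column medians of 5.48 to 5.51. Of the 677 miRNAs behind those medians, 458 were detected on no array. The part of background in this ratio was not tested.

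**Figure D4:**
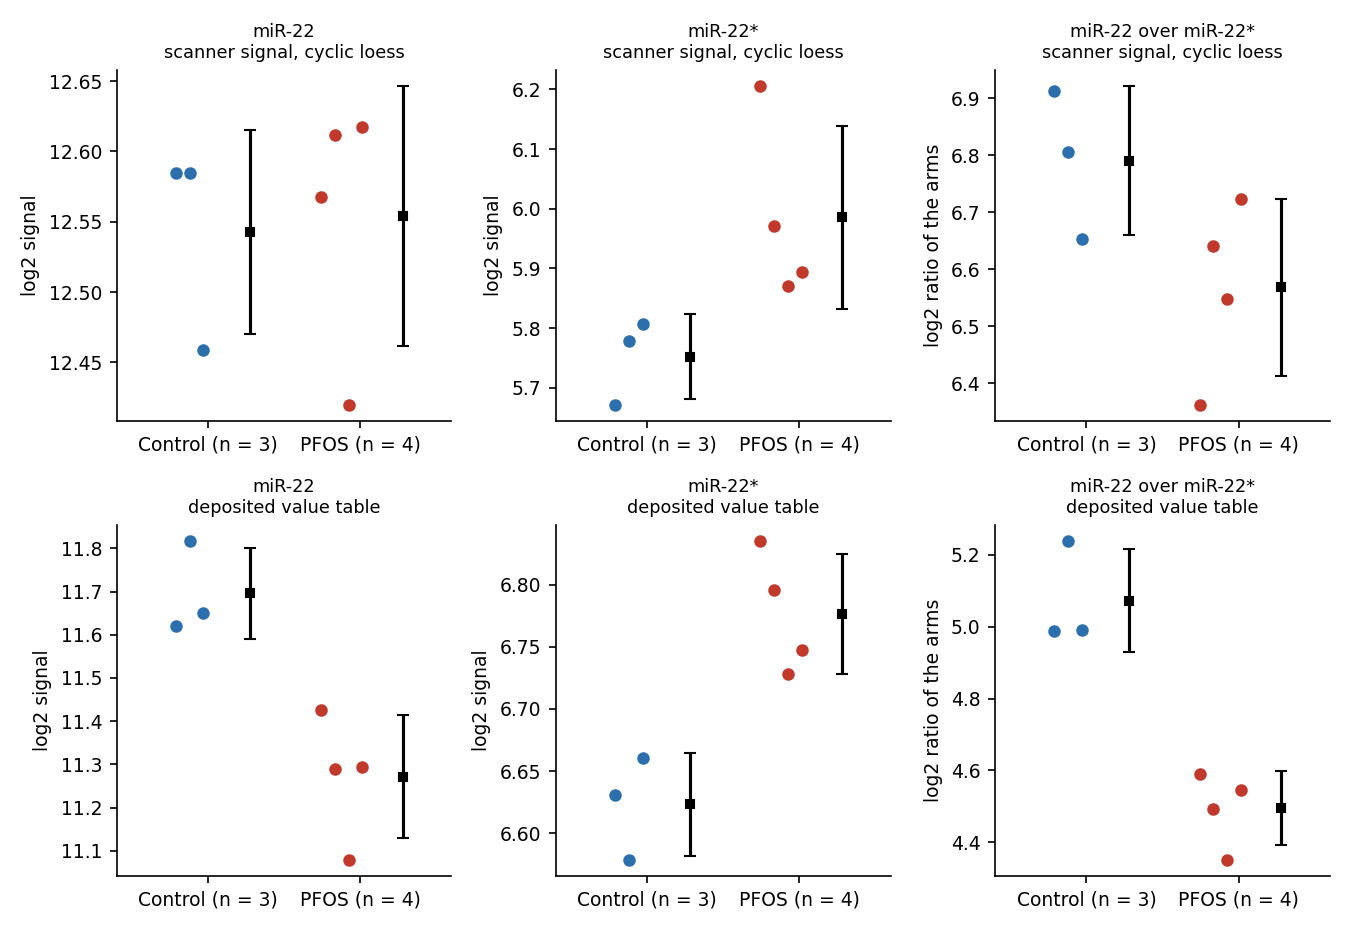
Log2 signal of miR-22 and miR-22* and the log2 ratio of the arms on each array, from the scanner signal after cyclic loess (top) and from the deposited value table (bottom); points are arrays, squares the mean and bars 1 SD. For the guide arm the groups overlap in the top panel and separate in the bottom one, while the star arm separates in both.

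Across the ways of processing, the guide arm took either sign, and the star arm was positive in most. Leaving aside cyclic loess with equal weights on all miRNAs (-1.04, SE 3.72), the log2 fold change of the guide ran from -0.42 in the deposited table, past -0.40 under scaling by the labelling spike-in, to 0.73 in the unscaled signal. The median over all tested miRNAs itself moved, from -0.43 under spike-in scaling to 0.69 in the unscaled signal, and it was -0.02 in the deposited table. Relative to that median the guide was low in the deposited table and close to it under spike-in scaling and in the unscaled signal. The low value in the deposited table was not particular to miR-22. There the brightest miRNA of each array was at 14.25 to 14.75 on PFOS and 15.05 to 15.25 on Control arrays. The median log2 fold change of a list of hepatocyte-enriched miRNAs, described below, was -0.31 in that table. The star arm was positive in 24 of 25 alternatives, with the exception of spike-in scaling, at -0.16. Among these, the filter and moderation settings left its fold change at the main value of 0.23, and others only left out 1 array. It passed in limma in the unscaled signal (0.97, adjusted p = 0.0314), with normexp background correction (0.30, adjusted p = 0.0265) and with the median signal without background subtraction (0.33, adjusted p = 0.0188). In these settings 53, 22 and 23 of the 175 tested miRNAs passed, in that order. In the fit over probes the only probe of the star arm, A_26_P00002016, did not pass with normexp (0.13, limma adjusted p = 0.248). Nor did it pass there with the median signal (0.14, limma adjusted p = 0.318). Over all alternatives the limma adjusted p of the star arm ran from 0.0188 to 0.993. The difference in the arm ratio was negative in all 25 alternatives and passed in 2 of them (limma adjusted p of 0.00775 to 0.939 over all 25). These were not independent checks of its sign. Array scaling cancels in the ratio, so the unscaled signal and the settings that only scaled the arrays all gave -0.24. The filter and moderation settings returned the main value of -0.22, and others only left out 1 array.

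**Figure D5:**
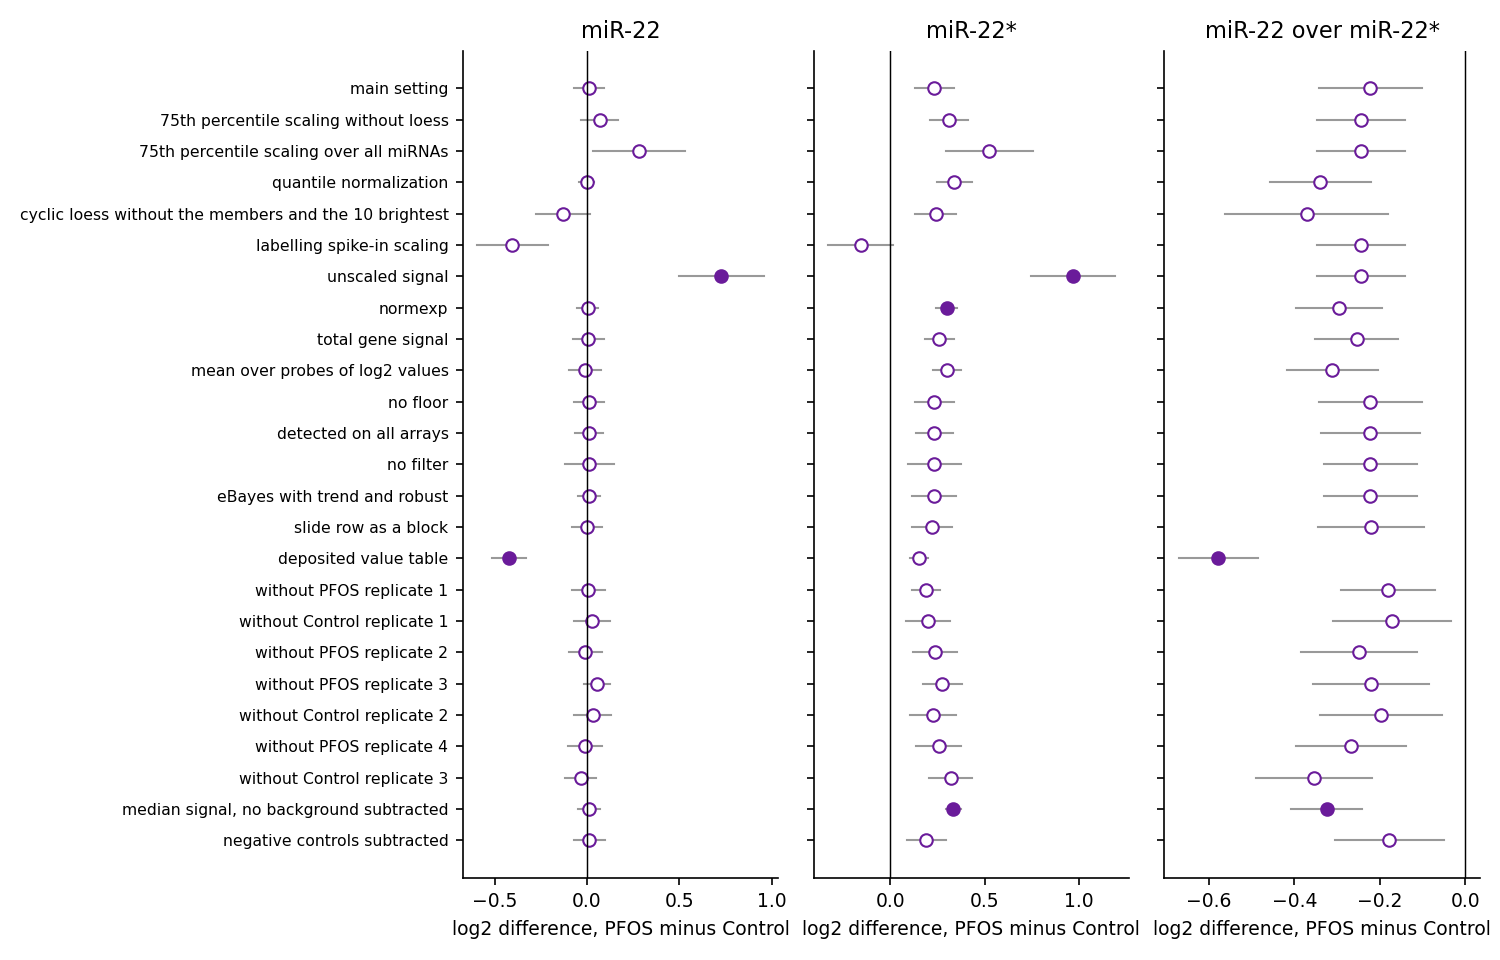
Log2 difference between PFOS and Control for miR-22, miR-22* and their ratio under each way of processing, with bars of 1 SE and filled points where the limma adjusted p was under 0.05; cyclic loess with equal weights on all miRNAs is left out, since its standard errors exceed the axes. The guide lies on both sides of 0, the star arm above 0 except under spike-in scaling (-0.16), and the ratio below 0 throughout.

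Other miRNAs were set beside the arms by 2 lists drawn up with earlier results of these data known. Of 13 hepatocyte-enriched miRNAs, both arms of miR-22 among them, 10 were tested and 0 passed in limma. At an unadjusted p under 0.05 there were 2 of these 10, where the share over all tested miRNAs was 19.4%. There were 6 positive and 4 negative fold changes with a median of 0.01. Its examples of smallest p were miR-122*, the star arm of miR-122, at -0.25 (SE 0.08), miR-101a, a repressor of Ezh2, at 0.20 (SE 0.07), miR-22* and miR-194, a partner of miR-192, at -0.12 (SE 0.08). Of 13 miRNAs of lipid and energy metabolism 11 were tested and 0 passed in limma, and 3 of the 11 were at an unadjusted p under 0.05, beside the same 19.4% over all tested miRNAs. There were 7 positive and 4 negative fold changes with a median of 0.00, and the examples were miR-107 at 0.34 (SE 0.10), miR-27b at -0.34 (SE 0.10), miR-34a, induced by p53, at -0.69 (SE 0.25) and miR-29a at 0.12 (SE 0.11). Over the alternatives run for the lists their medians took either sign, from -0.31 to 0.26 for the hepatocyte-enriched list and from -0.18 to 0.26 for the metabolic list, in each case lowest in the deposited table and highest where the 75th percentile was taken over the whole array.

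The miRNAs whose normalized log2 values over the 7 arrays were most like those of each arm, by Pearson's r among 174 others, are given as a description. For miR-22 they were miR-186 (r = 0.89), miR-30c (0.88), miR-335 (0.78), miR-365 (0.76) and miR-203 (0.72). Without PFOS 3 and Control 3, the arrays on which miR-22 was lowest, r was 0.01 for miR-186 and 0.31 for miR-365, so these rested on those arrays, and 0.87, 0.79 and 0.86 for miR-30c, miR-335 and miR-203. For miR-22* they were let-7i (r = 0.92), miR-362* (0.90), miR-29c (0.88), miR-221 (0.83) and miR-26a (0.76). Without PFOS 1 and Control 1, the highest and the lowest array for miR-22*, r was 0.81, 0.61, 0.87, 0.90 and 0.51 in that order. All of these miRNAs, like miR-22*, had positive fold changes, where 80 of the 175 tested miRNAs did. They were picked for following miR-22*, which lay higher on every PFOS array, so the shared direction comes with the choice. With group means subtracted, r with miR-22* was 0.81, 0.77, 0.79, 0.61 and 0.61 in the same order. For the miRNAs most like miR-22 it was then 0.78 to 0.91. The lists of the arms shared 0 miRNAs. All of these points share the arrays, their brightness and the loess.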

How the data were processed

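Liver total RNA of 4 PFOS and 3 Control rats was measured on 7 arrays of 1 slide. Per the file headers, spot intensity values and flags were made by the authors with Feature Extraction 10.7.3.1, with background subtracted and no normalization between arrays. The deposited values are log2 signals after the authors' own cyclic lowess in R, per the labels' design text, with settings not given in the sources used here. Column medians were 5.48 to 5.51.

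Processed signals of a probe's spots were averaged without spots flagged as outliers, and the probes of a miRNA were summed. Each array was brought to the same 75th percentile of the miRNAs that every array detected, floored at the 1st percentile of detected values (12.1), put on the log2 scale and normalized by cyclic loess (limma 3.58.1, R 4.3.3, span 0.7, 3 iterations, weight on those same miRNAs). A miRNA counted as detected where over 50% of kept spots of a probe were well above background, and tested where detected on all 3 Control or at least 3 PFOS arrays. Groups were compared with lmFit and eBayes, adjusted by Benjamini-Hochberg, with a threshold of 0.05. Arm ratios were fitted over 24 pairs. Pairs with a numbered star name were added after a first fit, and the ratio of miR-22 passed in neither. The fit was tested on simulated data. Files were read with the data.table package, version 1.17.8, and jsonlite 2.0.0, and plots drawn with matplotlib 3.10.9 (Python 3.11.15).

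Alternatives changed the normalization, background, signal, summary, floor, filter, moderation and slide row, and left out each array. Chosen after seeing the data were the median signal without background, subtraction of negative controls, and the fits of the deposited values without each array or with a slide row block. The members, lists, tests and naming rule were chosen with earlier results of these data known, and 1 list is not reported here. Named were the arms, the 5 miRNAs most like each, rank neighbours and up to 4 list examples by smallest p; miR-99a was named after its value was seen, as were the neighbours of miR-22* in rank.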

Additional observations from a re-analysis of the deposited data

Results flagged for a closer look

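On the PFOS 3 array the log2 ratio between the guide probes of miR-22, A_26_P00001213 over A_26_P00001212, was 1.33, far from the 0.98 to 1.03 of the other PFOS arrays. The gap to the nearest array took up 0.864 of the range of the 4 PFOS values, above Dixon's 95% critical value. It was the only one of 10 measures screened that passed. For a single measure chance gives such a value in about 1 group in 20, and more often for at least 1 of 10 measures. On that array the spots of A_26_P00001212 ran from 1696 to 2961, with a coefficient of variation of 15.7% and 0 spots flagged as outliers. Measured from the median of the other arrays the ratio was shifted by 0.33. Of the 130 miRNAs with exactly 2 tested probes, 9 others were shifted as far or farther on the same array, where the median shift was 0.08. Without PFOS 3 the log2 fold change of A_26_P00001212 was 0.016 in place of -0.08, and that of miR-22 was 0.054 in place of 0.01.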

How the results depend on the processing

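Across 25 alternatives the fold change of miR-22 was positive in 15 and negative in 8, and passed in 2. Its direction turned under cyclic loess with equal weights (-1.04, SE 3.72), loess without both arms and the 10 brightest miRNAs (-0.13), spike-in scaling (-0.40), averaging of log2 probe values (-0.012) and in the deposited table (-0.42), and ran from -0.033 to 0.054 as single arrays were left out. It passed in the unscaled signal (0.73, limma adjusted p = 0.0360). miR-22* kept its direction except under spike-in scaling (-0.16). It passed in the unscaled signal (0.97), with normexp (0.30) and with the median signal without background (0.33), and ran from 0.19 to 0.32 as arrays were left out. In the fit over probes its only probe did not pass with normexp (0.13) or with the median signal (0.14). The arm ratio passed in the deposited table (-0.58) and with the median signal without background (-0.32, limma adjusted p = 0.0424), and ran from -0.35 to -0.17 as arrays were left out. Of the 3 probes, 3 passed in the unscaled signal, where the median log2 fold change over all tested miRNAs was 0.69. Without the filter on dim probes 1 passed, A_26_P00002016, with a limma p of 0.0256 and an adjusted p of 0.0326. An adjusted p so near the unadjusted one means that most probes on the array passed there, so that pass is not particular to miR-22*. A_26_P00001212 turned positive under 75th percentile scaling over all miRNAs (0.26), in the unscaled signal (0.68) and without PFOS 3 (0.016), and ran from -0.12 to 0.016 as arrays were left out. A_26_P00001213 turned negative under loess without the brightest (-0.22), spike-in scaling (-0.38) and without Control 3 (-0.0057), with 0.060 as its highest value as arrays were left out, and A_26_P00002016 under spike-in scaling (-0.16). The count of passing miRNAs, 0 in the main setting, became 3 with the 75th percentile taken over all miRNAs, 8 under spike-in scaling, 53 unscaled, 22 with normexp, 1 with the total gene signal, 1 without the filter, 4 with slide row as a block, 9 in the deposited table and 23 with the median signal without background. Of 20 list members tested, 2 passed with normexp and 6 in the deposited table, beside the 22 and 9 (5.14%) given above for all 175 miRNAs. The star arm was itself among the 2, and the guide among the 6. The causes were not tested. The rank of miR-22 was 3 in each of the 12 alternatives in which ranks were taken, while the median rank of miR-22* moved from 111 to 340 with normexp and to 77 in the deposited table. No paired analysis was possible because the labels give the groups no shared replicate numbers.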
